A study of Mus musculus and Homo sapiens with 19 samples.

Results

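The 6 genes described here encode integrin subunits that bind collagen or laminin: Itga1, Itga2, Itga3, Itga6, Itga7 and Itgb4. They were chosen by name, as the entries whose symbol equals one of these, in upper case in the human table. All 6 were found among 24421 genes in the knockdown table, among 57992 in the human table and among 55573 in the co-culture tables. Integrins are cell surface receptors made of 1 alpha and 1 beta subunit. They tie the extracellular matrix outside the cell to the actin or keratin skeleton inside, and tumour cells use them to adhere, to invade and to cross vessel walls. The products of Itga1 and Itga2 pair with the Itgb1 product and bind collagens. Those of Itga3 and Itga7 pair with the Itgb1 product and bind laminins. The Itga6 product binds laminins with either the Itgb1 or the Itgb4 product, and with Itgb4 it forms the core of hemidesmosomes, the anchors that hold epithelial cells on the basement membrane.

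The series holds 19 RNA libraries of cultured cells, from 2 experiments on PHGDH, the enzyme that opens serine synthesis, in breast cancer cells, and 1 on the co-culture of such cells with endothelial cells. The first experiment set 4T1 mouse mammary tumour cells carrying an shRNA against Phgdh in a pLKO vector (shPHGDH) against 4T1 cells carrying a scramble shRNA in the same vector (shSCR), with 3 libraries each. The second set MDA-MB-231 human breast cancer cells labelled as transduced with a pLHCX vector for PHGDH cDNA against MDA-MB-231 controls, with 3 libraries each. The third had 1 library per group: 4T1 or EMT6.5 mouse mammary tumour cells sorted from co-culture with Bend3, a mouse endothelial line, the Bend3 cells sorted from each co-culture, and each line grown alone. All cells were established lines, no allele or animal was involved, and the labels do not say whether replicates came from separate cultures, so the spread behind each p-value may be technical.

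CPM below is a gene's count scaled to the assigned total of its library. Depth was 12.7 to 20.5 M assigned counts in the knockdown, 19.5 to 23.8 M in MDA-MB-231 and 4.27 to 7.67 M in the co-culture set. The targeted gene followed its label in the knockdown: Phgdh had 20.0 to 21.5 CPM in the 3 shPHGDH libraries, against 170, 175 and 165 CPM in shSCR. In the human experiment PHGDH mRNA ran against the label. It had 5.88, 4.44 and 5.56 CPM in the libraries labelled PHGDH-overexpressing, against 15.8, 16.0 and 18.5 CPM in the controls (log2 fold change -1.61, edgeR adjusted p = 5.75e-10). In the co-culture set the 10 endothelial markers summed to 10852, 11879 and 9124 CPM in the 3 Bend3 libraries and to 106 to 216 CPM in the 4 tumour libraries. Epcam and Cdh1, which define epithelial cells, were at 196 and 452 CPM in 4T1 with Bend3 and at 70.4 and 648 CPM in 4T1 alone, but at most at 0.853 CPM in either EMT6.5 library. The whole list of 8 epithelial markers summed to 643 CPM in EMT6.5 with Bend3 and 875 CPM in EMT6.5 alone, nearly all of it from the keratin genes Krt7, Krt8 and Krt18. The library of 4T1 with Bend3 was less like 4T1 alone (Spearman rho 0.876 over 10744 genes) than the EMT6.5 pair (0.94) or the Bend3 pairs (0.974 and 0.975) were to each other. Among the knockdown replicates shPHGDH library 1 stood apart, with a chi-square per degree of freedom of 14.2 and 19.8 against the other shPHGDH libraries, where all other pairs had 1.6 to 2.76. Without it all 6 subunits kept their call and direction, with log2 fold changes of 1.83 for Itga1, 1.19 for Itga2, 0.22 for Itga3, 0.75 for Itga6, 1.20 for Itga7 and -0.20 for Itgb4.

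Itga1 and Itga2 are neighbours in the mouse genome (GRCm38). Itga1 lies at chr13:114953096-115101964 and Itga2 at chr13:114833081-114932100, both on the minus strand and 20995 bp apart. The others are Itga3 at chr11:95044474-95076801 on the minus strand, Itgb4 at chr11:115974709-116008412, Itga6 at chr2:71745616-71858416 and Itga7 at chr10:128933818-128958282, the last 3 on the plus strand. All are protein-coding in GENCODE vM21. Of the exons of Itga1, 685 bp are shared with Gm49395 on the same strand, of Itgb4 537 bp with B230344G16Rik on the opposite strand and of Itga7 9 bp with Mettl7b on the opposite strand. Gm49395 had 0 counts in both mouse data sets and B230344G16Rik 13 counts summed over the 7 co-culture libraries. RefSeq promoters (GRCm38.p6, 250 bases before to 50 after a start site) were at hand for Itga1, Itga2 and Itga3, and are shown because Itga1 and Itga2 are adjacent and both rose in the knockdown, while Itga3 is the most abundant alpha subunit in 4T1. They span chr13:115101915-115102214, chr13:114932051-114932350 and chr11:95076665-95076964, all on the minus strand and written 5′ to 3′ along the gene. Capitals mark matches, on either strand, to GGGCGG (a GC box) or CCGGAA (an ETS motif).

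Itga1: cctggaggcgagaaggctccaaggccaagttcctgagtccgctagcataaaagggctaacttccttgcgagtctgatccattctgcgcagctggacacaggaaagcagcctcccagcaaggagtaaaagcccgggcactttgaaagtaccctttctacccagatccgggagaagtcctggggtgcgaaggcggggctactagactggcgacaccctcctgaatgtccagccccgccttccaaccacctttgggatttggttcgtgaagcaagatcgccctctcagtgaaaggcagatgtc
Itga2: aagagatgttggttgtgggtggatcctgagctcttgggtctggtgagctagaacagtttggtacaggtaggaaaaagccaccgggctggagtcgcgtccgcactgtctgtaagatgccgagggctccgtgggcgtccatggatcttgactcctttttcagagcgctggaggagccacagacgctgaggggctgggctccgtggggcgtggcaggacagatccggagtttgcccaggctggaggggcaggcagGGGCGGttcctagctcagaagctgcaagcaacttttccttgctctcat
Itga3: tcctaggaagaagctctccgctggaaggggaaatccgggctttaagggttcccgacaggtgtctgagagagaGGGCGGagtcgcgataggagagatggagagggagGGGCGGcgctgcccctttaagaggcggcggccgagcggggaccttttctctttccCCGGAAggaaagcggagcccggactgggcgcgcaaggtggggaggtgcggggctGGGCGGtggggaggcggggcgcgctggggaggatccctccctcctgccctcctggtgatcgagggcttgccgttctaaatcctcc

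A GC box was matched 0 times at Itga1, once at Itga2 and 3 times at Itga3, and it is present in 35.7% of 32851 RefSeq promoters of the same length. The ETS motif was matched 1 time, at Itga3, and is present in 14.9% of promoters. The AP-1 motif TGANTCA (present in 7.81% of promoters) and the TEAD motif GGAATG (14.7%) were searched as well and had no match in these 3 windows. Matches of different motifs did not overlap. GC content was 56.7% at Itga1, 59.3% at Itga2 and 66.7% at Itga3, against a median of 52.7% over all promoters. Another RefSeq promoter of Itga3, at chr11:95069149-95069448 on the minus strand, is not shown. It had 1 GC box and 1 AP-1 match, no ETS or TEAD match, and a GC content of 52.3%.

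In 4T1 cells with less Phgdh mRNA, both collagen-binding subunits rose. Itga1 had 2.59, 2.36 and 2.68 CPM in shPHGDH, against 0.555, 0.53 and 1.05 CPM in shSCR. These rest on 42, 30 and 55 counts in shPHGDH and 8, 9 and 20 counts in shSCR, so Itga1 was a low transcript in both groups, yet the groups did not overlap. Its log2 fold change was 1.83 (SE 0.26, edgeR quasi-likelihood test, Benjamini-Hochberg adjusted p = 9.7e-07). Itga2, the receptor through which epithelial cells hold type I collagen, had 255, 264 and 267 CPM in shPHGDH, against 119, 117 and 123 CPM in shSCR. Every shPHGDH library was more than 2-fold above every shSCR library, and the log2 fold change was 1.17 (SE 0.03, edgeR adjusted p = 6.7e-22).

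The 3 laminin-binding alpha subunits rose as well, by very different amounts. Itga3, which binds the laminin of the epithelial basement membrane, had 2265, 2294.5 and 2403 CPM in shPHGDH, against 2058, 2118 and 2032 CPM in shSCR. The groups did not overlap, but the rise was small, with a log2 fold change of 0.21 (SE 0.02, edgeR adjusted p = 2.47e-08). Itga6 had 394, 377 and 394.5 CPM in shPHGDH, against 231, 242 and 235 CPM in shSCR. All shPHGDH libraries lay well above all shSCR libraries, with a log2 fold change of 0.76 (SE 0.03, edgeR adjusted p = 1.53e-18). Itga7, best known as the laminin receptor of skeletal muscle, had 18.1, 19.7 and 17.2 CPM in shPHGDH, against 8.12, 8.01 and 8.27 CPM in shSCR. It was low in both groups and did not overlap between them, with a log2 fold change of 1.20 (SE 0.09, edgeR adjusted p = 2.75e-12).

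Itgb4 and Itgb1, the beta partners of these alpha subunits, fell. Itgb4, the partner of Itga6 in hemidesmosomes, had 161, 169 and 176 CPM in shPHGDH, against 200.3, 212 and 201 CPM in shSCR. The shPHGDH libraries were all below the shSCR libraries, and Itgb4 fell by 0.24 on the log2 scale (SE 0.03, edgeR adjusted p = 1.02e-06). Itgb1, which partners all 5 alpha subunits, had 2026.5, 2073 and 2020.0 CPM in shPHGDH, against 2227, 2269 and 2288 CPM in shSCR, and its log2 fold change was -0.11 (SE 0.02, edgeR adjusted p = 0.000158). Of the 6 subunits 5 were thus called higher and 1 lower. The share of all 11568 tested genes that were called was 59.7% (30.1% higher and 29.6% lower), so a call in this experiment is common. The median log2 fold change was 0.96 over the 6 subunits and -0.01 over all tested genes. Groups did not overlap for any of the 6 subunits, and for 64.2% of all tested genes.

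**Figure D1:**
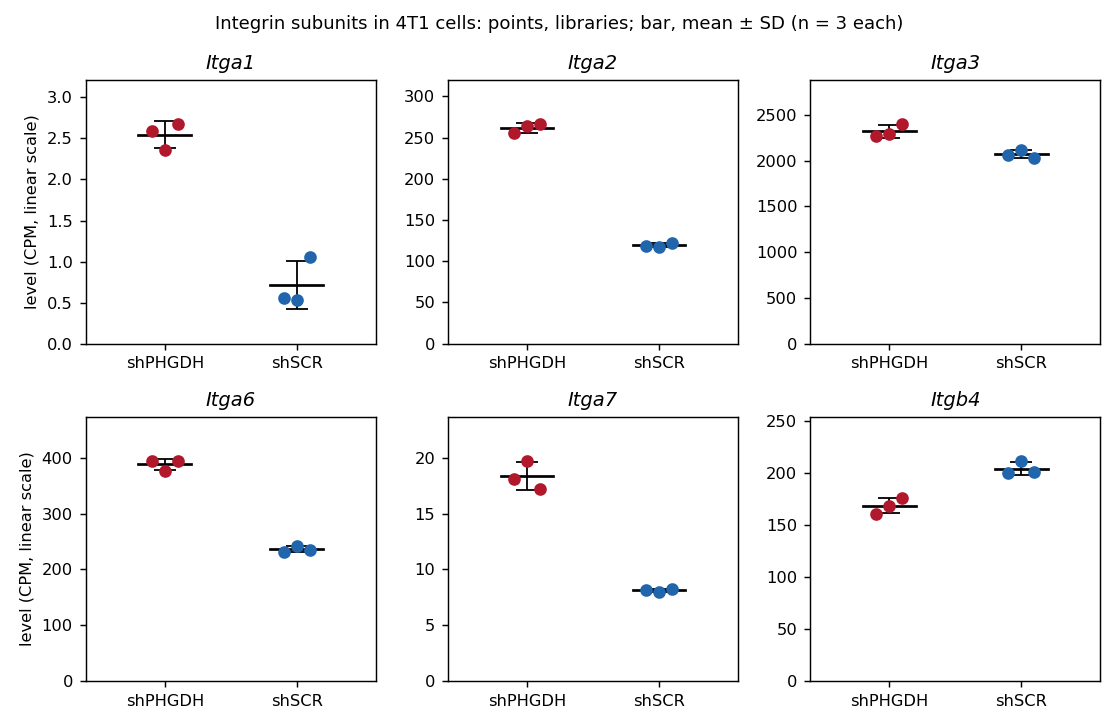
Level of each integrin subunit in 4T1 cells, in CPM on a linear scale from 0, by library, shPHGDH left and shSCR right. Points are libraries and black bars the mean ± SD (n = 3 each). Itga1, Itga2, Itga3, Itga6 and Itga7 lie higher in all shPHGDH libraries and Itgb4 lower.

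Means make the sizes easy to compare. Itga2 averaged 262.0 ± 6.04 CPM in shPHGDH and 119.7 ± 2.7 CPM in shSCR, and Itga6 averaged 388.5 ± 10.1 CPM in shPHGDH and 236 ± 5.55 CPM in shSCR (SD, n = 3 each). Itgb4 averaged 169 ± 7.52 CPM in shPHGDH and 204 ± 6.38 CPM in shSCR (SD, n = 3 each). Per kilobase of exons, which allows a comparison between genes, the ratio of Itga6 to Itgb4 was 1.9, 1.74 and 1.74 in shPHGDH and 0.895, 0.887 and 0.909 in shSCR. The ratio was thus higher in every shPHGDH library than in every shSCR library, but which of the 2 genes stood higher in shSCR depends on the length used. Per kilobase of the longest transcript Itga6 was at 53.6, 56.2 and 54.5 RPKM in shSCR and Itgb4 at 32.3, 34.1 and 32.4 RPKM in shSCR. Itga3 was the highest of the 6 in all 6 libraries with either length, at 397, 402 and 421 RPKM (CPM per kilobase of exons) in shPHGDH and 361, 371 and 356 RPKM in shSCR. The 5 alpha subunits summed to 479, 483 and 504 RPKM in shPHGDH and 404, 415 and 400.2 RPKM in shSCR, while Itgb1 was at 497, 508 and 495 RPKM in shPHGDH and 546, 556 and 561 RPKM in shSCR. The alpha sum thus stood closer to Itgb1 in shPHGDH than in shSCR on this scale. Per kilobase of the longest transcript the alpha sum was below Itgb1 in shSCR and above it in shPHGDH, so the closeness depends on the length used. Itga3 made up 82.9%, 83.2% and 83.5% of the alpha sum in shPHGDH and 89.3%, 89.3% and 88.9% in shSCR.

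Genes of some chromosomes moved together in this comparison, so each subunit was set beside the 50 tested genes nearest to it. Around Itga1 and Itga2 the neighbours had a median log2 fold change of 0.24, and on chromosome 13 as a whole 248 of 407 tested genes were called higher and 32 lower. Itga1 itself (log2 1.83) exceeded all 50 neighbours, and Itga2 (1.17) was exceeded by 1, which was Itga1. The neighbourhoods of the other alpha subunits had medians near or below 0: -0.03 at Itga3, -0.05 at Itga6 and -0.10 at Itga7. There 5 neighbours exceeded Itga3, 2 exceeded Itga6 and 1 exceeded Itga7. Around Itgb4 the median was -0.05, and 39 of 50 neighbours had a higher log2 fold change than Itgb4. Around Itgb1 the median was -0.29, lower than the log2 fold change of Itgb1 itself (-0.11). The part of the chromosome in these differences was not tested.

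**Figure D2:**
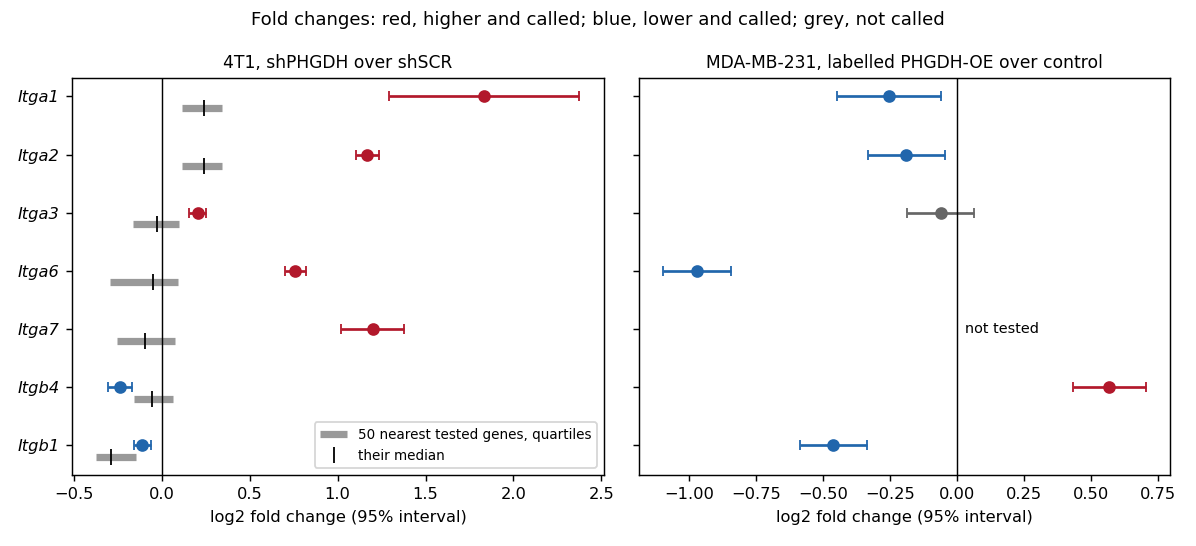
Log2 fold changes of the 6 integrin subunits and Itgb1 with 95% intervals from edgeR, for shPHGDH over shSCR in 4T1 (left) and for libraries labelled PHGDH-overexpressing over controls in MDA-MB-231 (right, human symbols of the same genes). Grey bars and black ticks give the quartiles and median of the 50 nearest tested genes in the knockdown. Itga1 (1.83) and Itga2 (1.17) lie far right of their neighbours' median of 0.24, and Itga6 is at 0.76 in 4T1 and at -0.97 in MDA-MB-231.

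The shSCR libraries 1 and 2 were sequenced in lane 5 and the other 4 libraries in lane 6. Within lane 6, with 1 shSCR library assumed to vary like the shPHGDH group, the log2 fold changes were 1.31 for Itga1, 1.13 for Itga2, 0.23 for Itga3, 0.76 for Itga6, 1.17 for Itga7 and -0.21 for Itgb4. All 6 kept their direction and were called there by edgeR, with adjusted p from 2.78e-44 for Itga2 to 0.000889 for Itga1. Markers of epithelial and other cells differed too. The 8 epithelial markers summed to 3974 to 4076 CPM in shPHGDH and 4304.5 to 4431 CPM in shSCR, with 2 called higher and 6 lower. The 10 endothelial markers summed to 91.9 to 95.6 CPM in shPHGDH and 64.1 to 71.0 CPM in shSCR, and 2 of the 10 reached 1 CPM in any library. All 3 tested of 5 leukocyte markers were called higher, with sums of 12.3 to 14.3 CPM in shPHGDH and 8.61 to 9.86 CPM in shSCR, and Adgre1 was at 0 in all shPHGDH libraries. The 1 tested of 5 fibroblast markers, Pdgfra, was called higher, with sums of 8.19 to 9.36 CPM in shPHGDH and 5.01 to 7.48 CPM in shSCR. Their part in the integrin differences was not tested, and in bulk RNA fewer cells of a type and less RNA per cell cannot be told apart.

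The matrix ligands of these receptors also changed in shPHGDH. Of 11 laminin chains 7 were tested, and 6 rose and 1 fell (median log2 0.57, against -0.01 for all genes). Lamb3 and Lama3 encode chains of epithelial basement membrane laminins, ligands of the Itga3 and Itga6 receptors, and both rose. Lamb3 averaged 256 ± 6.6 CPM in shPHGDH and 118 ± 0.555 CPM in shSCR (log2 1.16, edgeR adjusted p = 6.7e-22). Lama3 averaged 184 ± 6.46 CPM in shPHGDH and 106 ± 4.37 CPM in shSCR (0.83, edgeR adjusted p = 2.37e-17; SD, n = 3 each throughout). Lamb2, a chain of vascular and synaptic laminins, fell to 23.9 ± 1.98 CPM in shPHGDH, against 44.8 ± 2.74 CPM in shSCR (log2 -0.86, edgeR adjusted p = 5.23e-12). Of 10 collagen chains 6 were tested, with 4 higher and 1 lower. The basement membrane chains Col4a1 (log2 0.20) and Col4a2 (0.17) rose slightly and the fibrillar chain Col5a1 rose more (1.37), whereas Col6a1 (-1.52), a chain of the beaded filaments around cells, fell.

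Among the other integrin subunits 12 of 19 were tested, of which 7 rose, 2 fell and 3 were not called. The fibronectin receptor subunit Itga5 averaged 80.7 ± 4.06 CPM in shPHGDH and 43.7 ± 0.861 CPM in shSCR (log2 0.92, SD, n = 3 each), the vitronectin receptor subunit Itgb5 had a log2 fold change of 0.80, and Itgav, the alpha partner of Itgb5, one of 0.12. Of 9 tested hemidesmosome and tetraspanin genes 5 rose and 1 fell. The tetraspanins Cd82 (0.86) and Cd9 (0.54), which sit beside laminin-binding integrins in the membrane, and Plec (0.42), which links Itgb4 to keratin, rose, while the basal keratin gene Krt14 fell (-1.02). Of 18 integrin adaptors 8 rose, 5 fell and 5 were not called. The kindlin gene Fermt2 averaged 129 ± 2.82 CPM in shPHGDH and 64.0 ± 0.597 CPM in shSCR (log2 1.05, SD, n = 3 each). Vcl (0.67), Pxn (0.38) and Ptk2 (0.31), which encode the focal adhesion proteins vinculin, paxillin and FAK, rose too. Of the 4 integrin inactivators Dok1 (0.54) and Sharpin (0.31) rose and Flna fell (-0.10). Of 4 other collagen and laminin receptors, the dystroglycan gene Dag1 rose (0.14) and the collagen receptor gene Ddr1 fell (-0.21). The call of Ddr1 was lost within lane 6 (edgeR adjusted p = 0.0608). All of these are to be read against the 59.7% of tested genes that were called.

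**Figure D3:**
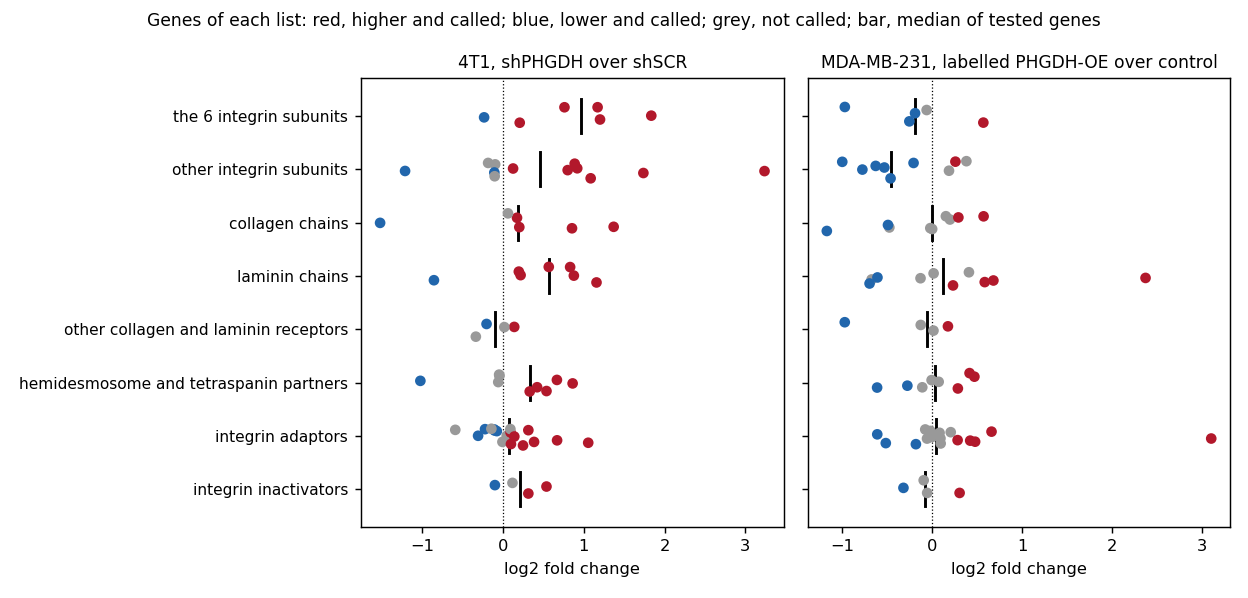
Log2 fold change of each tested gene in 8 lists, for shPHGDH over shSCR in 4T1 (left) and for libraries labelled PHGDH-overexpressing over controls in MDA-MB-231 (right). Points are genes, black bars the median of a list, whose values in the knockdown are 0.96 for the 6 subunits and 0.57 for laminin chains. In MDA-MB-231 the 5 tested subunits have a median of -0.19.

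In MDA-MB-231 the question was what PHGDH cDNA does, but PHGDH mRNA was lower in the libraries labelled PHGDH-overexpressing, and each direction below follows the label. The largest difference was in ITGA6 (ENSG00000091409), which had 320, 332 and 296 CPM in the libraries labelled PHGDH-overexpressing, against 696, 631 and 611 CPM in the controls. All 3 labelled libraries were far below all controls, with a log2 fold change of -0.97 (SE 0.06, edgeR adjusted p = 2.38e-11). ITGB4 (ENSG00000132470) had 204.5, 183 and 214 CPM in the labelled libraries, against 150.0, 135 and 136.5 CPM in the controls. It did not overlap between the groups and rose, with a log2 fold change of 0.57 (SE 0.07, edgeR adjusted p = 3.65e-07). ITGB1, the shared beta subunit, had 726, 798 and 689 CPM in the labelled libraries, against 1106, 1026 and 1046 CPM in the controls, and fell by 0.46 on the log2 scale (edgeR adjusted p = 1.87e-06).

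The collagen receptors were slightly lower. ITGA1 (ENSG00000213949) had 21.6, 23.4 and 22.0 CPM in the labelled libraries, against 32.1, 24.6 and 26.3 CPM in the controls (log2 -0.25, edgeR adjusted p = 0.032). ITGA2 (ENSG00000164171) had 404.5, 404 and 373 CPM in the labelled libraries, against 534, 437 and 433 CPM in the controls (log2 -0.19, edgeR adjusted p = 0.0295). In both genes control library 1 was the highest of the 6, and both calls rest on it: without it the log2 values were -0.13 for ITGA1 (edgeR adjusted p = 0.278) and -0.09 for ITGA2 (0.28). Both calls were also lost without labelled library 1 (edgeR adjusted p = 0.109 for ITGA1 and 0.0562 for ITGA2) or labelled library 3 (0.082 and 0.121), and that of ITGA1 with DESeq2 (0.0842).

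ITGA3 (ENSG00000005884) had 848, 789 and 894 CPM in the labelled libraries, against 951, 932 and 870 CPM in the controls. The groups overlapped, and ITGA3 was not called (log2 -0.06, 95% interval -0.19 to 0.06, edgeR adjusted p = 0.429). ITGA7 (ENSG00000135424) had 4, 13 and 9 counts in the labelled libraries, against 7, 9 and 10 counts in the controls, or at most 0.55 CPM, and did not pass the filter on low counts. Of the 5 subunits tested 1 was thus called higher and 3 lower, where 44.5% of all 17663 tested genes were called (21.6% higher and 22.9% lower). With library totals in place of scaling, 3055 genes were called higher and 4895 lower, against 3816 and 4048. The median log2 fold change was -0.19 over the 5 tested subunits and -0.01 over all tested genes. Groups did not overlap for 4 of the 6 subunits and for 53.0% of all tested genes.

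**Figure D4:**
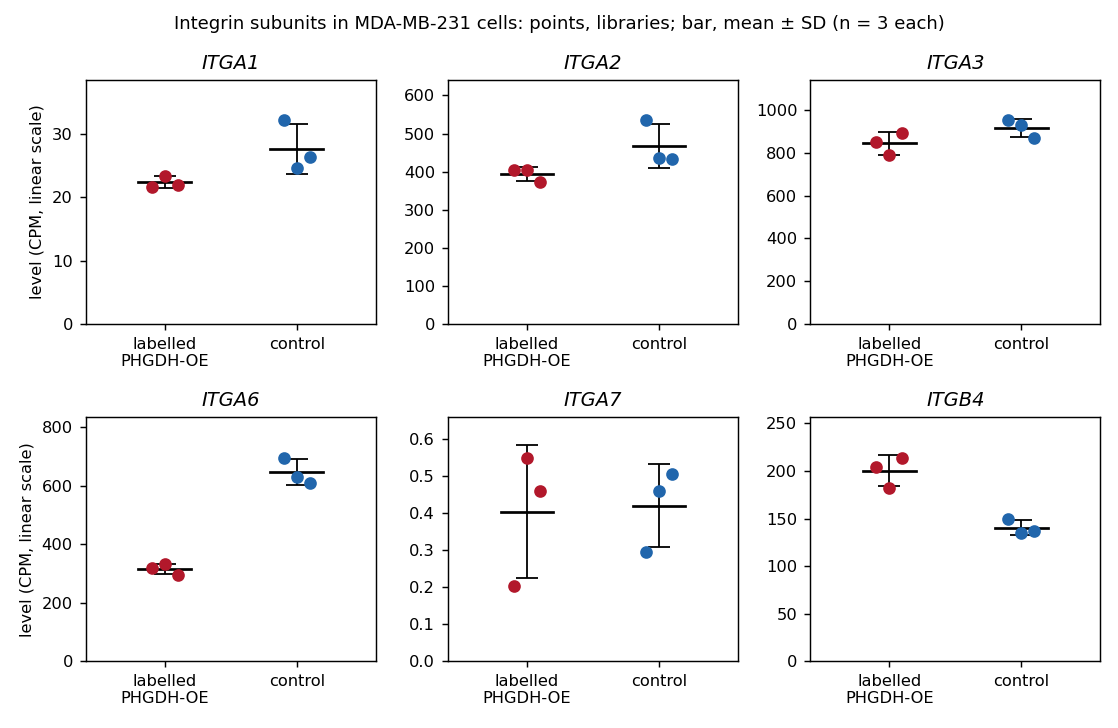
Level of each integrin subunit in MDA-MB-231, in CPM on a linear scale from 0, by library, with libraries labelled PHGDH-overexpressing left and controls right. Points are libraries and black bars the mean ± SD (n = 3 each). ITGA6 lies lower in all labelled libraries and ITGB4 higher, while ITGA3 and ITGA7 overlap.

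Averages were 316 ± 18.1 CPM in the labelled libraries and 646 ± 44.5 CPM in the controls for ITGA6, and 200.4 ± 16.1 CPM in the labelled libraries and 141 ± 8.17 CPM in the controls for ITGB4 (SD, n = 3 each). Among the laminin chains 10 of 11 were tested, and 4 rose, 2 fell and 4 were not called. LAMA4 averaged 18.4 ± 1.5 CPM in the labelled libraries and 3.65 ± 0.649 CPM in the controls (log2 2.37, SD, n = 3 each), LAMB1 rose (0.68), and LAMB3 (-0.70) and LAMB2 (-0.61) fell. LAMA3, which is named after its values were seen, rose as well (0.58). Of 9 other integrin subunits tested 1 rose and 6 fell, with ITGB2 (-0.63), a leukocyte subunit, and ITGAV (-0.53) lower and ITGA5 (0.26) higher. Of 9 tested collagen chains 2 rose and 2 fell, among them COL6A1 (0.57) and COL6A3 (-0.49).

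Of 8 tested hemidesmosome and tetraspanin genes 3 rose and 2 fell. CD63 (0.47), COL17A1 (0.42), which encodes a hemidesmosomal collagen, and CD9 (0.29) were higher in the labelled libraries, and the plakin gene DST (-0.61) was lower. Of 18 adaptors 5 rose, 3 fell and 10 were not called, with SRC (0.66) and VCL (0.48) higher and PTK2 (-0.61) and FERMT2 (-0.52) lower. Of 4 inactivators 1 rose and 1 fell, ITGB1BP1 (-0.32) being the lower one, and of 4 other collagen and laminin receptors 1 rose and 1 fell. The 8 epithelial markers summed to 1889 to 2112 CPM in the labelled libraries and 1307 to 1328 CPM in the controls, with 5 higher and 1 lower of 6 tested. The 10 endothelial markers summed to 136 to 145 CPM in the labelled libraries and 166.5 to 170.5 CPM in the controls, with CDH5 at 0 in all 6. Their part in the integrin differences was not tested.

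In the co-culture set the subunits differed in level between the cell lines, some of them also within a line. Per kilobase of exons Itga3 was the highest of the 6 in all 4 tumour libraries, though per kilobase of the longest transcript Itga6 (135 RPKM) stood above Itga3 (103 RPKM) in 4T1 with Bend3. Itga6 was the highest in all 3 Bend3 libraries, at 80.9, 78.7 and 78.3 RPKM. Itga2 was at 97.8 to 135 CPM in both 4T1 libraries and at most at 8.85 CPM in Bend3, and Itga7 was at or below 7.43 CPM everywhere. In 1 edgeR fit of all 7 libraries, the lines and partners stood in for replicates. Bend3 was compared there with the mean of both tumour lines at the level of the lines grown alone. In this edgeR comparison Bend3 was above that mean for Itga6 (log2 3.13, adjusted p = 0.00705) and Itga1 (3.32, adjusted p = 0.0486) and below it for Itga2 (-4.82, adjusted p = 0.0414). It does not hold for Itga1 in co-culture, at 207 CPM in 4T1 with Bend3 and 34.6 CPM in Bend3 with 4T1. Itga3 (-0.87), Itga7 (-4.52) and Itgb4 (1.23) were not called (edgeR adjusted p = 0.0546, 0.0648 and 0.204). The call of Itga1 was lost without the library of 4T1 alone (log2 1.24, edgeR adjusted p = 0.0948) and without the filter on low counts (3.25, adjusted p = 0.052). Itga3 was called when EMT6.5 alone, EMT6.5 with Bend3 or 4T1 with Bend3 was left out (edgeR adjusted p = 0.00835, 0.00421 and 0.0244), as was Itgb4 (0.00118, 0.00262 and 0.022), and Itga7 was called without EMT6.5 with Bend3 (0.0442). With any tumour library left out, the spread in the fit came from the co-cultured Bend3 libraries only. The share of all 13092 tested genes called in this comparison was 23.0% (14.2% higher and 8.76% lower).

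Of the laminin-binding subunits, Itga3 and Itga6 were higher in 4T1 than in EMT6.5 cells, and Itga7 and Itgb4 were not called. In the same edgeR fit Itga6 (log2 3.68, adjusted p = 0.00689) and Itga3 (1.66, adjusted p = 0.0057) were called higher in 4T1, where 10.8% of all tested genes were called (5.09% higher and 5.74% lower). Grown alone, Itga6 had 226 CPM in 4T1 and 35.2 CPM in EMT6.5, a ratio of 6.43, and Itga3 had 826 CPM in 4T1 and 243 CPM in EMT6.5, a ratio of 3.39. Itgb4 was lower in 4T1 alone, at 58.8 CPM against 124 CPM in EMT6.5 alone, a ratio of 0.474. Its value in the fit, which averages over both cultures, was 0.15 (edgeR adjusted p = 0.899). With 1 library left out it ranged from -1.06 to 1.33, and it was negative in more than 1 of these fits. Without the library of EMT6.5 with Bend3 it was -1.04, against 1.33 without EMT6.5 alone. Itga1 (3.58, adjusted p = 0.0552), Itga2 (2.57, 0.127) and Itga7 (0.32, 0.843) were not called by edgeR. Itga1 and Itga2 were both called by DESeq2 (adjusted p = 0.00078 and 0.00653) and by edgeR without 4T1 alone, EMT6.5 alone, Bend3 with 4T1 or Bend3 with EMT6.5, and Itga1 also without Bend3 alone (adjusted p = 0.0458). Between the lines grown alone 2 subunits were at least 2-fold higher and 1 lower, among 5 with a mean of at least 5 CPM, where 34.2% of all such genes differed by as much (15.3% higher and 19.0% lower).

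Beside endothelial cells, 4T1 held far more Itga1, Itgb4 and Itga6 transcript than alone. With 1 library per group these are ratios with no test, and the 95% exact intervals cover counting error only. Itga1 had 207 CPM (882 counts) in 4T1 with Bend3, against 4.18 CPM (18 counts) in 4T1 alone, a ratio of 49.4 (interval 31.1 to 83.8). Itgb4 had 312 CPM in 4T1 with Bend3 and 58.8 CPM in 4T1 alone, a ratio of 5.31 (4.64 to 6.1). Itga6 had 581 CPM in 4T1 with Bend3 and 226 CPM in 4T1 alone, a ratio of 2.57 (2.38 to 2.77). Smaller differences were seen for the others. Itga2 was at 135 CPM in 4T1 with Bend3 and 97.8 CPM in 4T1 alone (ratio 1.38), and Itga3 was at 502 CPM in 4T1 with Bend3 and 826 CPM in 4T1 alone (0.608). Itga7 was at 1.87 CPM (8 counts) in 4T1 with Bend3 and 7.43 CPM (32 counts) in 4T1 alone (0.252, interval 0.1 to 0.559). Of 5 subunits with a mean of at least 5 CPM, 3 were at least 2-fold higher and none lower, where 25.7% of all 10212 such genes differed by as much (13.0% higher and 12.7% lower). Itga1 met that minimum only through its level in co-culture, and Itga7 fell short of it. With a minimum of 1 CPM, 3 of 6 subunits were higher and 1, Itga7, was lower. The share of all genes past 2-fold at that minimum was not determined, so this count has no reference.

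The level of Itga1 in 4T1 with Bend3 was above that of every other library, the Bend3 libraries included, which had 34.6, 31.5 and 24.1 CPM. The endothelial markers in 4T1 with Bend3 were at 1.99% of their level in the Bend3 cells of the same co-culture, and that share of the Bend3 level would give 0.687 CPM of Itga1, 14.5 CPM of Itga6 and 4.05 CPM of Itgb4. The part of Bend3 RNA in the values of 4T1 with Bend3 was not tested. The fibroblast markers summed to 38.4 CPM in 4T1 with Bend3, of which Pdgfra made up 37.5 CPM, and to 6.5 CPM in 4T1 alone, while Dcn and Lum were at 0 in both. Whether the difference of this library from 4T1 alone in other genes has a part in these ratios was not tested. Phgdh was at 4.92 CPM in 4T1 with Bend3, from 21 counts, and at 15.1 CPM in 4T1 alone.

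In EMT6.5 cells the ratios had other sizes and in part other directions, a difference between the lines that 1 library per group cannot test. Itga1 had 5.97 CPM (28 counts) in EMT6.5 with Bend3 and 1.95 CPM (15 counts) in EMT6.5 alone, a ratio of 3.06 (interval 1.58 to 6.15). Itga2 had 4.91 CPM in EMT6.5 with Bend3, against 57.5 CPM in EMT6.5 alone, a ratio of 0.0854 (0.0535 to 0.13). Itga6 had 104 counts with Bend3 (95% interval 18.1 to 26.9 CPM) and 270 counts alone (31.1 to 39.6 CPM), a CPM ratio of 0.63 (interval 0.498 to 0.793), and Itgb4 was at 125 CPM with Bend3 and 124 CPM alone (1.01, interval 0.907 to 1.12). Of the laminin receptors Itga3 was at 173 CPM with Bend3 and 243 CPM alone (0.711), and Itga7 at 1.92 CPM (9 counts) with Bend3 and 4.95 CPM (38 counts) alone (0.388). Thus Itga1 was higher and Itga3 and Itga7 were lower in co-culture in both lines, while Itga2 and Itga6 went in opposite directions. Of 4 subunits with a mean of at least 5 CPM, 1 was at least 2-fold lower and none higher, where 12.0% of all 10293 such genes differed by as much (5.01% higher and 6.97% lower). With a minimum of 1 CPM, 1 of 6 subunits was higher, Itga1, and 2 were lower, Itga2 and Itga7. The share of all genes past 2-fold at that minimum was not determined, so this count has no reference. The endothelial markers were at 1.06% of their level in the Bend3 partner, and summed to 125 CPM in EMT6.5 with Bend3 and 122 CPM in EMT6.5 alone. Other lists differed more in this pair. The 4 smooth muscle and pericyte markers summed to 660 CPM in EMT6.5 with Bend3 and 2838 CPM in EMT6.5 alone, nearly all from Acta2, with Rgs5 at 0 in both. The 5 fibroblast markers summed to 99.0 CPM in EMT6.5 with Bend3 and 34.9 CPM in EMT6.5 alone, with Dcn, Lum and Thy1 at 0 in both. Their part in the integrin ratios was not tested.

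**Figure D5:**
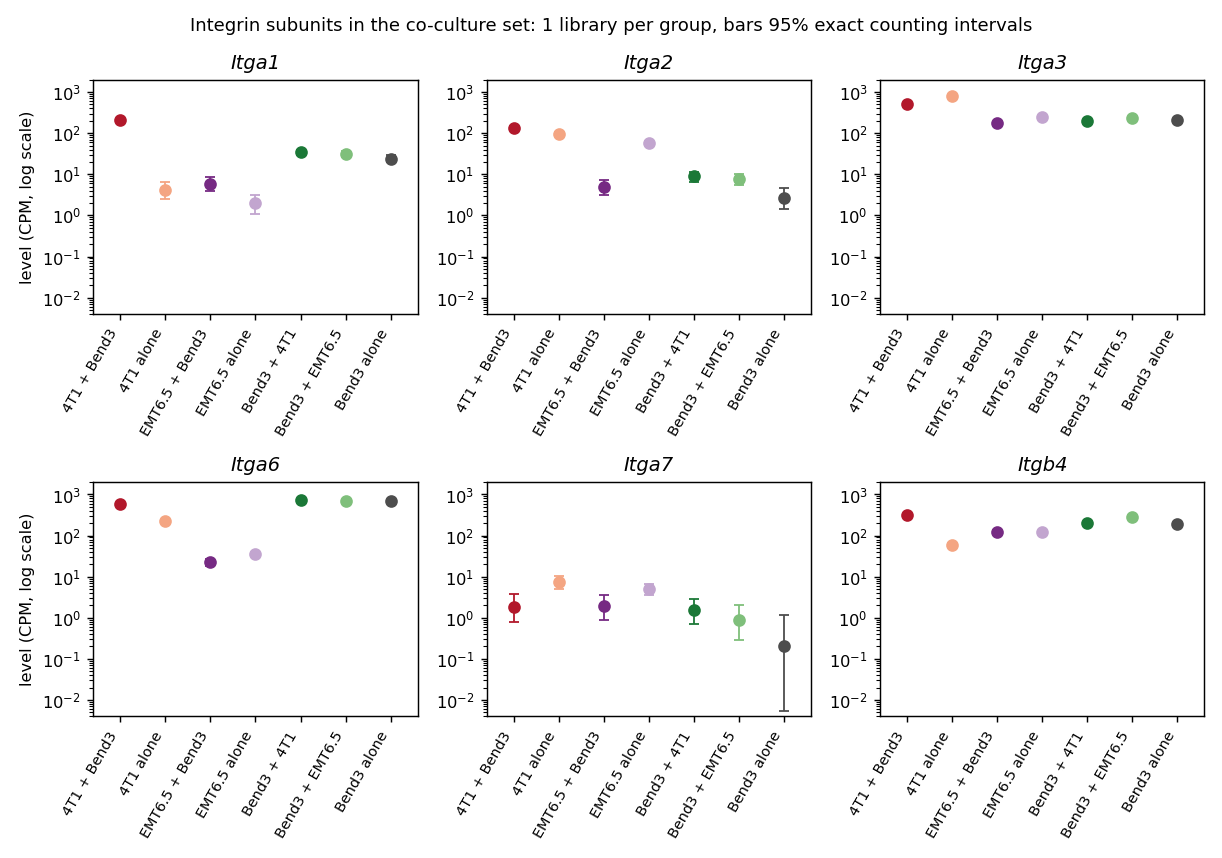
Level of each integrin subunit in the 7 co-culture libraries, in CPM on a log scale, with 1 library per group and each co-culture left of the line alone. Bars are 95% exact counting intervals. Itga1 stands at 207 CPM in 4T1 with Bend3 and 4.18 CPM in 4T1 alone, Itga2 at 4.91 CPM in EMT6.5 with Bend3 and 57.5 CPM in EMT6.5 alone, and Itga6 near 700 CPM in all Bend3 libraries.

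What both tumour lines share in co-culture was tested in the 7-library edgeR fit. None of the 6 subunits was called, and 2 of them, Itga1 and Itga3, had an unadjusted p under 0.05. The log2 fold changes were 3.99 for Itga1 (adjusted p = 0.2), 1.25 for Itgb4 (0.422), 0.45 for Itga6 (0.714), -0.56 for Itga3 (0.347), -1.27 for Itga2 (0.594) and -1.61 for Itga7 (0.473). With DESeq2 1 subunit was called, Itga1 (3.74, adjusted p = 0.000418). Of all tested genes 0.0306% were called by edgeR (0.0229% higher and 0.00764% lower), and 1681 had an unadjusted p under 0.05. A difference between the lines adds to the spread in this fit. Without the library of 4T1 with Bend3 the log2 fold change was 1.63 for Itga1, 0.04 for Itgb4 and -0.63 for Itga6. Without EMT6.5 with Bend3, when only the 4T1 pair sets the co-culture term, it was 5.63 for Itga1, 2.42 for Itgb4 and 1.37 for Itga6. In both of these fits the spread comes from the co-cultured Bend3 libraries only, so no p-value is given. Without Bend3 with 4T1 or Bend3 with EMT6.5, Itga1 was called by edgeR (3.84, adjusted p = 0.0439, and 3.85, adjusted p = 0.0353).

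In the endothelial cells Itga2 was the only subunit past 2-fold among those with a mean of at least 5 CPM. It met that minimum only through its level in co-culture, as it was at 2.72 CPM in Bend3 alone. Both comparisons of co-cultured Bend3 share the library of Bend3 alone. Itga6 had 730 CPM in Bend3 with 4T1 and 710 CPM in Bend3 with EMT6.5, against 707 CPM in Bend3 alone. Itga3 had 197 CPM with 4T1 and 235 CPM with EMT6.5, against 212 CPM in Bend3 alone. Itgb4 had 204 CPM with 4T1 and 278 CPM with EMT6.5, against 190 CPM in Bend3 alone, and the ratio with EMT6.5 was 1.46. Itga1 had 34.6 CPM with 4T1 and 31.5 CPM with EMT6.5, against 24.1 CPM alone, ratios of 1.44 and 1.31. The largest ratio among subunits with a mean of at least 5 CPM was that of Itga2, at 8.85 CPM (52 counts) with 4T1 and 7.65 CPM (44 counts) with EMT6.5, against 2.72 CPM (13 counts) alone. These ratios of 3.26 and 2.81 were the only ones past 2-fold at that minimum. Of all genes at it, 4.72% differed by as much with 4T1 (2.84% higher and 1.88% lower) and 4.21% with EMT6.5 (2.52% higher and 1.69% lower). Itga7 did not reach the minimum. It was also higher in co-culture, at 1.53 CPM (9 counts) with 4T1 and 0.869 CPM (5 counts) with EMT6.5, against 0.209 CPM (1 count) in Bend3 alone.

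The epithelial markers in Bend3 with 4T1 summed to 47.5 CPM, against 1.67 CPM in Bend3 alone, and were at 2.32% of their level in the 4T1 partner. That share of the 4T1 level would give 4.8 CPM of Itga1 and 3.13 CPM of Itga2, beside the 34.6 and 8.85 CPM measured. In Bend3 with EMT6.5 the epithelial markers summed to 7.3 CPM, against 1.67 CPM in Bend3 alone, and were at 1.13% of their level in the EMT6.5 partner, with Epcam, Cdh1 and 3 others of the 8 at 0. That share of the EMT6.5 level would give 0.0557 CPM of Itga2, beside the 7.65 CPM measured. Epcam and Cdh1 were below 1 CPM in both EMT6.5 libraries as well, so their level of 0 here carries little information. The part of tumour cell RNA in the Itga2 values was not tested. In the edgeR fit none of the 6 subunits was called in Bend3 (adjusted p = 1 for each, and 0 at an unadjusted p under 0.05), as was no tested gene (0.0%; 295 genes had an unadjusted p under 0.05). DESeq2 called 1 gene and 0 of the subunits. Between the 2 co-cultured Bend3 libraries no subunit with a mean of at least 5 CPM differed 2-fold, where 3.53% of all such genes did.

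Per kilobase of exons, the ratio of Itga6 to Itgb4 was lower in both EMT6.5 libraries than in the other 5, and the 4T1 and Bend3 libraries overlapped. It was 1.45 in 4T1 with Bend3 and 3.0 in 4T1 alone, 0.138 in EMT6.5 with Bend3 and 0.22 in EMT6.5 alone, and 2.79, 1.99 and 2.9 in Bend3 with 4T1, with EMT6.5 and alone. Itga3 made up 48.2% of the 5 alpha subunits summed per kilobase in 4T1 with Bend3 and 78.4% in 4T1 alone, while Itgb1 was at 184 RPKM with Bend3 and 254 RPKM alone. In EMT6.5 the share was 89.1% with Bend3 and 77.1% alone.

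Across the 7 co-culture libraries each subunit was compared with 10743 other genes by Pearson r of log2 CPM, as a description: the points share 3 cell lines and their culture. The 3 genes most like Itga1 were 4930523C07Rik (r = 0.99), Twf2 (0.968) and Helz (0.967). Those most like Itga2 were Aff4 (0.992), Ints11 (0.989) and Dnajc9 (0.975), and those most like Itga3 were Usp6nl (0.988), Rbm8a (0.986) and Utp15 (0.983). Lysmd2, Man1a and Ddah2 were most like Itga6 (0.997 each), and Cst3 (0.993), Ube2d1 (0.979) and Fyco1 (0.973) most like Itgb4. Itga7 was below the minimum mean of 5 CPM and was not compared.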

How the data were processed

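The deposited files hold raw gene counts. Per the submitters' processing notes the authors used Trim Galore 0.5.0, HISAT2 2.1.0 and HTSeq on GRCm38. Which annotation and counting mode they chose, and the build for human reads, are not given in the sources used here. Per the labels, RNA extracted with TRIzol (1 µg) went into stranded mRNA libraries read as 50 bp single ends, and co-cultured cells were sorted first. Of the columns deposited with the knockdown, 10 matched no label and were not used. The human table's SCR columns were read as the controls. Summary lines stayed out of totals. In MDA-MB-231 entries aligned to several places were 3.54% to 3.7% of all, those in no gene 3.42% to 4.5% and ambiguous ones 5.86% to 6.42%. The co-culture files had 48.2% to 55.3%, 9.27% to 11.6% and 0.498% to 0.665% of these. Replicates differed by more than sampling noise: the chi-square statistic per degree of freedom spanned 1.6 to 2.76 for knockdown pairs without shPHGDH library 1, 14.2 and 19.8 for pairs with it, and 2.85 to 7.71 for human pairs.

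CPM values are counts over all assigned counts. Each replicated experiment, and the 7 co-culture libraries with line, tumour co-culture and Bend3 co-culture as terms, was fitted with edgeR 4.0.16 in R 4.3.3 (TMM, default filter on low counts, quasi-likelihood F-test), and genes were called at a Benjamini-Hochberg adjusted p under 0.05 over all tested genes. The co-culture fit had 5 coefficients and 2 residual degrees of freedom. With a tumour library left out, its spread comes from the co-cultured Bend3 libraries only. The code was tested on simulated data. Co-culture ratios are CPM ratios with exact 95% counting intervals, and a gene counted as past the fold at 2-fold with a mean of at least 5 CPM in the pair. The labels name no molecular identifiers, and intervals cover counting error only. RPKM used the union of GENCODE vM21 exons on GRCm38, which held 99.3% of the co-culture gene IDs and 95.8% of the knockdown symbols. No human lengths or positions were used. From each list the text names up to 4 genes per replicated experiment, by largest absolute log2 fold change, if called, averaging 10 CPM or more, and without overlap of the groups. A gene that this rule also names is not reported here. The 6 subunits, the lists and the tests were chosen with earlier results of these data known. Alternatives were other scaling, no filter, DESeq2 1.42.0, a replicate block, lane, each library left out, other folds and minimums, and the longest transcript as the length.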

Additional observations from a re-analysis of the deposited data

Results flagged for a closer look

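The ratio of co-culture to culture alone went in opposite directions in the 2 tumour lines for 2 subunits. Itga2 had a ratio of 1.38 in 4T1 and 0.0854 in EMT6.5, and Itga6 had a ratio of 2.57 in 4T1 and 0.63 in EMT6.5. Each ratio comes from 1 library per group, so the difference between the lines was not tested.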

How the results depend on the processing

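In the knockdown all 6 subunits kept their direction and their call under each of the 13 alternatives, with 5639 to 7101 genes called, and Itga1 ranged from 1.31 within lane 6 to 2.27 without shSCR replicate 3. The labels do not say whether replicate numbers pair the samples. Same-numbered libraries correlated at -0.088 to 0.08 in their deviations from the group means, which does not settle it. With the replicate block 6585 genes and 6 subunits were called in the knockdown and 7761 genes and 4 subunits in MDA-MB-231, and no subunit's call changed. In MDA-MB-231 leaving out a library left 2 to 4 subunits called, those of ITGA1 and ITGA2 being lost.

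The co-culture fit is fragile. For tumour cells with Bend3 over tumour cells alone, genes called numbered 4, but 18 with median-ratio scaling, 22 with library totals, 20 without the filter, 287 with DESeq2, 35 in the tumour libraries alone and 0 to 1560 when 1 library was left out, with 0 to 4 subunits called (DESeq2 1). The 2 largest counts come without either EMT6.5 library, when only the 4T1 pair sets the co-culture term. The spread then comes from the co-cultured Bend3 libraries only, so these counts do not measure variation of the tumour cells. For Bend3 with tumour cells over Bend3 alone DESeq2 called 1 gene. For 4T1 over EMT6.5, leaving out a library gave 741 to 3174 genes and 2 to 5 subunits, DESeq2 4 subunits, and Itgb4 (0.15) reversed to -1.04 without EMT6.5 with Bend3, within a range of -1.06 to 1.33. For Bend3 over the tumour lines, at the level of the lines grown alone, the ranges were 2409 to 5218 genes and 2 to 6 subunits. The subunits past the fold in EMT6.5 with Bend3 numbered 3 with a minimum of 1 CPM and 2 at 1.5-fold, and those between the lines alone 5 at 1.5-fold. In 4T1 with Bend3 they numbered 4 with a minimum of 1 CPM and 4 at 1.5-fold. For these other settings the share of all genes past the fold was not determined. The order per length was the same with the longest transcript in 8 of 13 mouse libraries. Depth limits Itga1 in the knockdown (8 to 55 counts a library) and in 3 of the 4 tumour libraries of the co-culture set (15 to 28), Itga7 in all 7 of that set (1 to 38) and ITGA7 in MDA-MB-231 (4 to 13).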

Other observations

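Genes around the 6 subunits also differed in the tumour cells sorted from co-culture. These were chosen after their values were seen, each ratio comes from 1 library per group, and none was tested. Plec, which ties Itgb4 to keratin, was at 383 CPM in 4T1 with Bend3 and 91.3 CPM in 4T1 alone, a ratio of 4.2, and at 530.3 CPM in EMT6.5 with Bend3 and 411 CPM in EMT6.5 alone, a ratio of 1.29. The tetraspanin gene Cd9 was at 318 CPM in 4T1 with Bend3 and 45.5 CPM in 4T1 alone (ratio 6.99), and at 168 CPM in EMT6.5 with Bend3 and 106 CPM in EMT6.5 alone (1.59). Of the 8 hemidesmosome and tetraspanin genes that averaged 5 CPM or more in the pair, 4 were at least 2-fold higher in 4T1 with Bend3 and 0 lower, and in EMT6.5 0 were higher and 1 lower. Over all genes with that level 13.0% were as much higher and 12.7% lower in the 4T1 pair, and 5.01% higher and 6.97% lower in the EMT6.5 pair.

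The collagen VI chain Col6a1 was at 115 CPM in 4T1 with Bend3 and 16.5 CPM in 4T1 alone, a ratio of 6.99. It was at 607 CPM in EMT6.5 with Bend3 and 1.56 CPM in EMT6.5 alone, a ratio of 388 (95% exact counting interval 222 to 752). The Bend3 libraries had 6.3 CPM of Col6a1 with 4T1, 7.65 CPM with EMT6.5 and 0.209 CPM alone. In each co-culture its level was thus higher in the tumour library than in the Bend3 library. The part of tumour cell RNA in the Bend3 values was not tested.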
